A study of Mus musculus with 8 samples.

Results

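Kidneys of mouse embryos at embryonic stage E14.5 (days after conception) were compared with kidneys at E12.5, in the 4 libraries of those stages out of 8 in the whole series. Of the 24151 genes in the files, 13677 could be tested, and 8674 of these (63.4%) differed between the stages with the same sign under both agents given to the mothers. The embryos were of the ICR strain, from timed matings of mice aged 8 weeks. Mothers of the CPF group received chlorpyrifos (CPF), an organophosphate insecticide, dissolved in dimethyl sulfoxide (DMSO), as a daily injection under the skin of 5 mg per kg on gestation days 7.5 to 11.5. Mothers of the DMSO group received the same volume of DMSO on the same days, so every library comes from a solvent-exposed litter and none from an untreated one. There was 1 CPF library and 1 DMSO library at each stage, and the labels do not say how many embryos, kidneys or litters entered a library. The comparison therefore pairs the stages within an agent: each gene has a CPF difference and a DMSO difference, E14.5 minus E12.5 on the log2(TPM + 1) scale, and their mean is the stage difference. Where levels are given as a pair joined by "then", the E12.5 level comes first. TPM, the authors' transcript abundance, is scaled for transcript length and for library size. Low genes change by more than their difference on this scale shows.

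The mouse metanephric kidney begins as a ureteric bud that enters a cap of mesenchyme, and its tips exchange signals with Six2-expressing nephron progenitors that either renew or turn into epithelial vesicles. Those vesicles elongate through comma- and S-shaped bodies and are then patterned into podocytes, proximal tubule, loop of Henle and distal tubule, while Foxd1-expressing stroma gives rise to interstitium, pericytes and mesangium. At the earlier of the stages compared here branching has only begun and tubules are rare, and by the later one the first nephrons are maturing.

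The libraries held 11950 to 12870 genes at 1 TPM or more. Rpph1 and Rmrp, the structural RNAs of a pair of RNA-processing enzymes, together took 19.25% and 20.67% of TPM in CPF at E12.5 and E14.5, and 19.58% and 23.62% in DMSO. Multi-transcript genes sat mostly near 0, Gapdh included (at most 0.926 TPM), and are not called weakly expressed on that ground. Embryonic kidney markers were present in all 4 libraries: Wt1, a transcription factor of nephron progenitors and podocytes, lay between 83.2 and 154.8 TPM, and Calb1, a calcium-binding protein of the ureteric tree, between 122.5 and 173.3 TPM. Markers of neighbouring organs were present as well, and their levels are given beside the results they move with. In tissue RNA, fewer cells of a type and less RNA per cell cannot be told apart.

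At an adjusted p under 0.05 in limma, 38 genes (0.278% of those tested) rose from E12.5 to E14.5 and 1 gene (0.00731%) fell. The 38 comprise 5 precursors of microRNAs and 33 other genes, 1 of which, AI662270, is a long non-coding RNA, and the gene that fell is a microRNA precursor. The fit uses all 8 libraries, so the spread behind a p is how the CPF and DMSO courses part from each other over the 4 stages, with 3 residual degrees of freedom; it does not measure the spread between animals. These calls are sensitive to the processing: no gene was called after quantile normalization, with a pseudocount of 5 or without the filter on low values, where 1184, 729 and 1164 genes had an unadjusted p under 0.05, against 847 here. With the 4 libraries alone, which leave 1 residual degree of freedom, 649 genes (5.09%) were higher and 407 (3.19%) lower, and these include all 39. By a second rule with no test, a difference of more than 1 log2 unit in the same direction in both agents, 327 genes (2.39%) were higher at E14.5 and 68 (0.497%) were lower. The smaller differences leaned the other way, with 3645 genes (26.7%) higher and 5029 (36.8%) lower in both agents and a median stage difference of -0.07 over all genes (0.00 in CPF, -0.14 in DMSO). The size of this lean depends on the scaling. Scaled to coding transcripts, 3880 of 12777 genes were higher and 4342 lower in both agents, with a median of -0.02. After quantile normalization 3736 were higher and 5263 lower, with a median of -0.05. Across genes, which are not independent replicates, the CPF and DMSO differences had a Pearson correlation of 0.43.

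**Figure D1:**
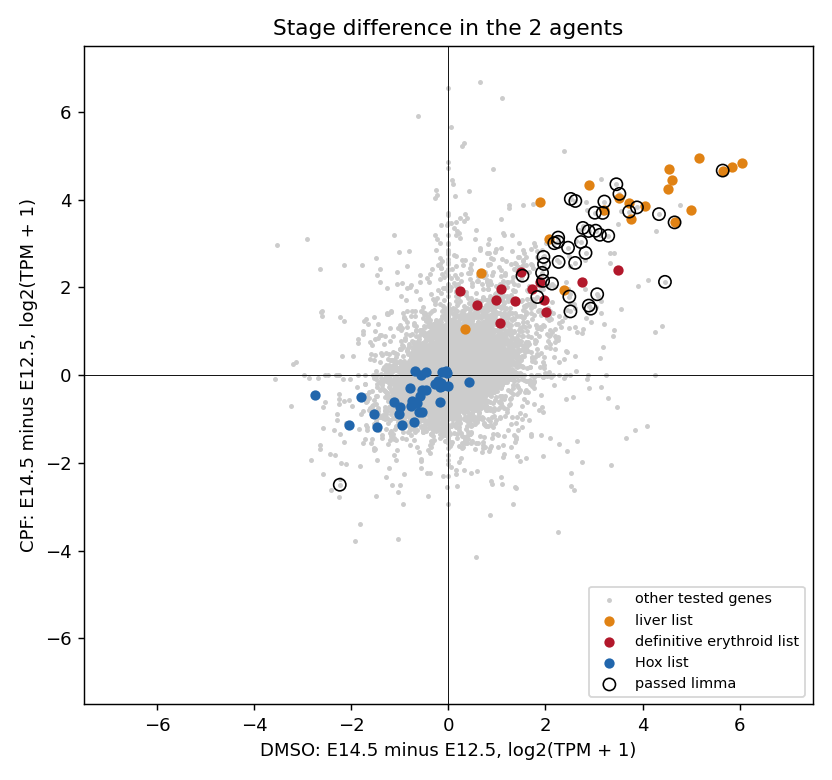
Stage difference of each tested gene, E14.5 minus E12.5 in log2(TPM + 1), in DMSO (x axis) against CPF (y axis). Open circles are the 39 genes that passed limma; the 20 genes of the liver list (orange) and the 13 of the definitive erythroid list (red) lie in the upper right quadrant, and the Hox list (blue) lies mostly in the lower left.

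The 6 microRNA precursors among the calls rest on very few reads, and their mature sequences, credited to RefSeq on GRCm38.p6, are shown for the gene that fell and for the one with most countable reads, because these names would otherwise read as regulators. Capitals mark the seed, bases 2 to 8, which pairs with target messages; the 4 seeds differ.
mmu-miR-149-5p: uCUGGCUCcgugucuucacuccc
mmu-miR-149-3p: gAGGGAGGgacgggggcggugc
mmu-miR-384-5p: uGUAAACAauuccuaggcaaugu
mmu-miR-384-3p: aUUCCUAGaaauuguucacaau
The Mir149 hairpin on chromosome 1 was at 4.65 TPM in CPF and 3.71 TPM in DMSO at E12.5 and listed at 0 in both at E14.5 (-2.37 ± 0.43 SE, adjusted p = 0.0479, limma). From the hairpin's length and the step between low values, those levels correspond to 3 reads in each E12.5 library. The X-linked Mir384 hairpin was listed at 0 in both E12.5 libraries and at 6.48 TPM (6 reads) in CPF and 4.52 TPM (4 reads) in DMSO at E14.5. The Mir881 calls rest on 4 reads in each E14.5 library, Mir6903 on 3 in each, and Mir7038 on 3 in CPF and 2 in DMSO, all against 0 at E12.5. Mir881 and Mir6903 were also listed at 0 in every E16.5 and E18.5 library. They thus met the filter of 1 TPM in 2 libraries only through E14.5, where they are high, and their calls are no support for a rise. Mir6989 rose from 0 to 11.99 TPM in CPF and from 1.71 to 20.9 TPM in DMSO, and its values did not come out as whole reads. A TPM of a hairpin does not measure the mature microRNA, and nothing further is read from these 6.

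Among the 33 other genes that rose, 22 could be matched to a RefSeq promoter, and the 250 bases upstream of the start in that table were searched on both strands for short motifs of factors known from liver, tubule and metal responses. The HNF1 core GTTAAT, bound by a homeodomain factor of liver and tubule epithelium, was in the windows of 5 of the 22 genes, and in 4.36% of the 9670 promoters of tested genes. The 5 genes are Afp, Gc, Habp2, Hao2 and Sult1d1, and their windows are shown with the core in capitals, 5′ to 3′ on the gene's own strand, in GRCm38.p6 (chr5:90490464-90490713 plus, chr5:89457899-89458148 minus, chr19:56287662-56287911 plus, chr3:98893231-98893480 minus and chr5:87569007-87569256 minus, in that order).
Afp: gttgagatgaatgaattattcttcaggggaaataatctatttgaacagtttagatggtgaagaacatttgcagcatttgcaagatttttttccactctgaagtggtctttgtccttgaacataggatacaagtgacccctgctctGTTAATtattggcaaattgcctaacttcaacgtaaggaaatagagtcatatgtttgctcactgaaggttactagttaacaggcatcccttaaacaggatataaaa
Gc: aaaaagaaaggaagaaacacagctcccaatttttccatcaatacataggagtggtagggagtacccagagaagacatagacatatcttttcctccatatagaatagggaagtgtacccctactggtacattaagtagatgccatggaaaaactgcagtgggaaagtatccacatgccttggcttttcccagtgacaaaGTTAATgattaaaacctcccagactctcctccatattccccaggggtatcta
Habp2: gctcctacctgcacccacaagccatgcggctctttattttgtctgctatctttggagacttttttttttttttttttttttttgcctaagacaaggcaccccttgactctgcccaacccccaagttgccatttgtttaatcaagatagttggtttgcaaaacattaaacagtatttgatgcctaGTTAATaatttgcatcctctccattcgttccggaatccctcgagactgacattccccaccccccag
Hao2: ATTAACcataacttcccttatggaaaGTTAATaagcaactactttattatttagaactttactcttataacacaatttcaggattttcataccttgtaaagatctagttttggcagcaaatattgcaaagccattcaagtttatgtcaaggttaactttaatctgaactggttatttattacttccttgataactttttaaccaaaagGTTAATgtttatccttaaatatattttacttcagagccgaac
Sult1d1: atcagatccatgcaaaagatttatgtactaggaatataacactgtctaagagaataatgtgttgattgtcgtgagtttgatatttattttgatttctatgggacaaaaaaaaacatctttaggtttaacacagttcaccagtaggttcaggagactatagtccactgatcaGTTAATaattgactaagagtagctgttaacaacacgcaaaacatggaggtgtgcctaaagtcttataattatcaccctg
The Afp core begins 105 bases before the start, that of Gc 52, that of Habp2 66 and that of Sult1d1 79, while Hao2 has 3 matches, beginning 250, 224 and 42 bases before it. The HNF4 motif CAAAGTCCA was in none of the 22 windows and in 0.393% of all. The TATA box TATAAA was in 2 of the 22 (7.07% of all), the CCAAT box CCAATC in 5 (1842 of the 9670) and the GATA motif AGATAA in 4 (6.14%). The core of the metal response element (TGCACNC or TGCGCNC), which was added to the search after the values had been seen, was in 4 of the 22 windows and in 29.5% of all. It is shown for the adjacent metallothionein genes on chromosome 8, Mt2 (chr8:94172368-94172617, plus) and Mt1 (chr8:94178839-94179088, plus).
Mt2: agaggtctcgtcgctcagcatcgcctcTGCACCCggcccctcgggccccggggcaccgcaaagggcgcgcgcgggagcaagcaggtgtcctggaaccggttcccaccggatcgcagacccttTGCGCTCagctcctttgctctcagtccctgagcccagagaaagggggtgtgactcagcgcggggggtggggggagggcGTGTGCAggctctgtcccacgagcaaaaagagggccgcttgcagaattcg
Mt1: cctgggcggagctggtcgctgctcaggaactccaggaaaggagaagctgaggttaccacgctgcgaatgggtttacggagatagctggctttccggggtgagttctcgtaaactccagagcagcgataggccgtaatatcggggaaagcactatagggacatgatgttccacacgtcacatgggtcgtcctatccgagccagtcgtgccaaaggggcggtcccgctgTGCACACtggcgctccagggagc
Mt2 has 3 matches, beginning 223, 128 and 50 bases before the start, and Mt1 has 1, beginning 23 bases before it. No capital stretch overlaps a match of another motif in the search. The Habp2 and Hao2 windows lie inside the annotated span of the gene and the Mt1 window partly so, because the table gives each gene 1 start, which need not be its outermost. A match is a run of letters and was not tested as a site.

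Genes of the proximal tubule, the segment that reclaims sugars, amino acids, phosphate and protein from the filtrate, leaned higher at E14.5, though few passed. On the proximal tubule list 21 genes were higher and 1 lower in both agents (26.7% and 36.8% of all tested genes were). In 19 both E14.5 values exceeded both E12.5 values (17.3% of all tested genes did). Of 30 tested genes on the proximal tubule list, 3 rose, Spp2 and Hnf4a among them, 0 fell, 7 were more than 1 log2 unit higher in both agents, and the median difference was 0.61 against -0.07 for all genes. Hnf4a encodes the nuclear receptor that directs proximal tubule differentiation (chr2:163506811-163572907). It was at 0.742 TPM in CPF and 0.037 TPM in DMSO at E12.5, and at 13.2 and 5.88 TPM at E14.5 (2.88 ± 0.47 SE, adjusted p = 0.0411). Spp2, a secreted phosphoprotein, went from 2.22 to 30.5 TPM in CPF and from listed at 0 to 7.19 TPM in DMSO (3.16 ± 0.51 SE, adjusted p = 0.0429). Neither gene's stages overlapped.

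The receptors and transporters of the mature segment named here did not pass. Lrp2 (megalin), the endocytic receptor, was at 5.84 then 15.1 TPM in CPF, 9.91 then 10.8 TPM in DMSO, E12.5 before E14.5, so most of its difference came from CPF (1.24 against 0.11, adjusted p = 0.933). Its partner Cubn (cubilin) was at 0.815 then 2.60 TPM in CPF, 0.822 then 1.93 TPM in DMSO (adjusted p = 0.917). Slc34a1, the sodium-phosphate cotransporter, reached 1.56 TPM in CPF and 0.866 TPM in DMSO, from 0.033 TPM and a listed 0 (adjusted p = 0.911). Slc2a2, the basolateral glucose carrier that liver also uses, was at 1.14 then 12.8 TPM in CPF, 1.13 then 4.73 TPM in DMSO (2.06, adjusted p = 0.111). Keg1, a kidney-expressed acyltransferase-like gene, was at 0 then 5.89 TPM in CPF, 0.048 then 10.2 TPM in DMSO (3.10, adjusted p = 0.0854). Ttr, the thyroxine carrier that is also on the liver list, had a difference of 4.38 (adjusted p = 0.581), and Dab2, an endocytic adaptor with 4 listed transcripts, had the only pair of negative differences on the list (-0.30 and -0.50).

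Other genes that rose follow with what each encodes. Sult1d1, a sulfotransferase, was at 0.592 TPM in CPF and listed at 0 in DMSO at E12.5, and at 21.5 and 13.8 TPM at E14.5 (3.85 ± 0.41 SE, adjusted p = 0.00169). Spink1, a trypsin inhibitor, was at 0.482 and 0.193 TPM at E12.5 and at 25.0 and 12.7 TPM at E14.5, CPF before DMSO (3.83 ± 0.41 SE, adjusted p = 0.00169). Hao2, a peroxisomal hydroxyacid oxidase, was at 0.446 and 0.158 TPM at E12.5 and at 21.6 and 6.10 TPM at E14.5. The stages did not overlap for any of these, and the approximate reads behind Sult1d1 went from 14 to 550 in CPF and from 0 to 337 in DMSO. Rgn (regucalcin, 3.44), Aadac (arylacetamide deacetylase, 3.09), Ugt2b34 (a glucuronosyltransferase, 3.06) and Apom (an apolipoprotein made in liver and tubule, 2.65) rose by the log2 differences given, with adjusted p from 0.0067 for Rgn to 0.0446 for Apom. The long non-coding RNA AI662270 on chromosome 11 rose from 4.81 to 32.6 TPM in CPF and from 1.78 to 9.88 TPM in DMSO (2.25, adjusted p = 0.0446).

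**Figure D2:**
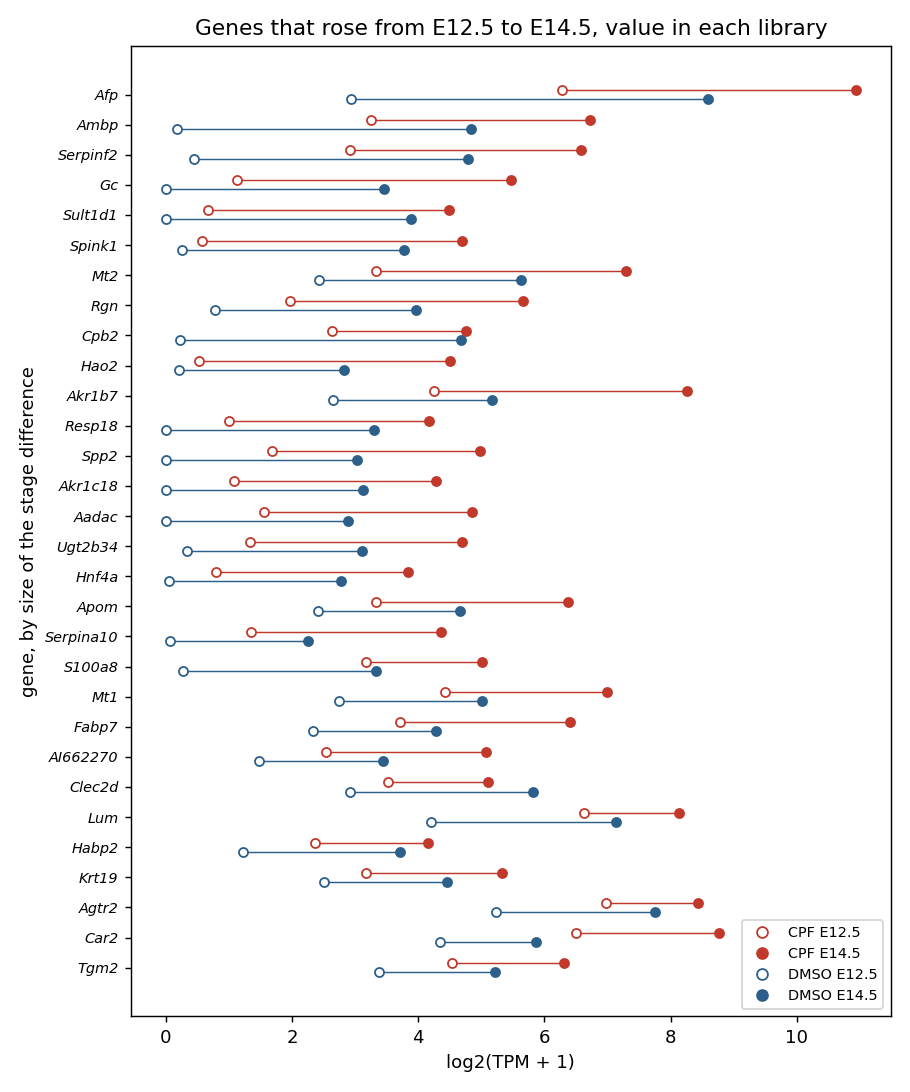
Level in log2(TPM + 1) of 30 of the 33 genes other than microRNA precursors that rose, in each of the 4 libraries; open points are E12.5, filled points E14.5, red CPF and blue DMSO, 1 library per point. Filled points lie to the right of open ones of the same agent in every row, and Car2 is the gene whose DMSO E14.5 value (57.6 TPM) lies below its CPF E12.5 value (89.7 TPM).

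Plasma proteins of fetal liver, secreted by hepatocytes into blood, were higher at E14.5 throughout their list. All 20 tested members of the liver list were higher at E14.5 in both agents, 18 of them by more than 1 log2 unit, with a median of 3.89 (3.94 in CPF, 3.90 in DMSO), and in all 20 both E14.5 values exceeded both E12.5 values (17.3% of all tested genes did). Only 2 of the 20, Afp and Ambp, passed limma. The summed level of the list went from 259.5 to 6018 TPM in CPF and from 29.3 to 1251 TPM in DMSO. Afp, the fetal counterpart of albumin (chr5:90490714-90508907), went from 76.5 to 1959 TPM in CPF and from 6.64 to 382.9 TPM in DMSO. That is a stage difference of 5.16 ± 0.63 SE (adjusted p = 0.0437), and the DMSO E14.5 kidney was above the CPF E12.5 kidney. Ambp, the precursor of alpha-1-microglobulin and bikunin, went from 8.49 to 104.9 TPM in CPF and from 0.132 to 27.6 TPM in DMSO (4.07 ± 0.57 SE, adjusted p = 0.0286). Alb itself went from 61.0 to 1668 TPM in CPF and from 3.89 to 278.0 TPM in DMSO, a difference of 5.29 that did not pass (adjusted p = 0.704). Serpina6, the corticosteroid-binding globulin, showed 5.45 (adjusted p = 0.684), and Apoa2, a high-density lipoprotein component, 5.05 (adjusted p = 0.739). The part of liver RNA in the rise of genes that liver and kidney share, such as Hnf4a and Apom, was not tested.

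Secreted proteins outside that list rose alongside it. Serpinf2, the plasmin inhibitor alpha-2-antiplasmin that fetal kidney and liver both make (chr11:75431736-75439501), had the smallest adjusted p of any gene, 0.000726. It was at 6.56 TPM in CPF and 0.369 TPM in DMSO at E12.5 and at 95.1 and 26.7 TPM at E14.5 (4.00 ± 0.35 SE). Gc, the vitamin D-binding protein that megalin retrieves in the proximal tubule, was at 1.18 TPM and a listed 0 at E12.5 and at 43.3 and 10.01 TPM at E14.5 (3.90 ± 0.64 SE, adjusted p = 0.0479). Cpb2, a carboxypeptidase that slows clot lysis, was at 5.23 and 0.165 TPM at E12.5 and at nearly the same level in both agents at E14.5, 26.2 TPM in CPF and 24.7 TPM in DMSO (3.29 ± 0.51 SE, adjusted p = 0.0411). Serpina10, an inhibitor of coagulation factor Xa (2.59), and Habp2, a hyaluronan-binding serine protease (2.14), also passed (adjusted p = 0.0429 and 0.0479).

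Both measured metallothioneins, small cysteine-rich proteins that bind zinc and copper and whose promoters were shown above, rose. Mt2 went from 9.12 to 155.8 TPM in CPF and from 4.37 to 48.7 TPM in DMSO (3.58 ± 0.38 SE, adjusted p = 0.00169). Mt1 went from 20.4 to 126.7 TPM in CPF and from 5.67 to 31.2 TPM in DMSO (2.42 ± 0.33 SE, adjusted p = 0.0115). Mt2 thus started below Mt1 and ended above it in both agents on the length-scaled level. The other 16 tested genes on the metallothionein and antioxidant list did not pass. Among them Hmox1, the haem-degrading enzyme, was at 40.8 then 34.3 TPM in CPF, 24.7 then 20.4 TPM in DMSO, and Nqo1, a quinone reductase, at 12.7 and 16.4 TPM and at 8.59 and 12.3 TPM. Metallothioneins are also made by fetal liver, whose list was higher in the same libraries, and the part of that in the difference was not tested.

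Steroid-producing and chromaffin cells of the adrenal gland, which lies against the kidney, were represented unevenly. Akr1b7, an aldo-keto reductase of adrenal cortex and of the embryonic renin lineage (chr6:34412362-34423137), was the only gene of 14 tested on the adrenal cortex list that rose: from 18.0 to 305.9 TPM in CPF and from 5.26 to 35.0 TPM in DMSO (3.27 ± 0.40 SE, adjusted p = 0.0067). Its renin-lineage companion Ren1 was listed at 0 in all 4 libraries. Ren1 reached only 0.148 TPM in CPF and a listed 0 in DMSO at E18.5, and is not interpreted. The adrenal list's median was 2.42 in CPF and 0.38 in DMSO, and its summed level went from 132.6 to 930.5 TPM in CPF and from 85.7 to 124.0 TPM in DMSO. Hsd3b1, a steroid dehydrogenase, was at 5.79 then 233.0 TPM in CPF, 0.218 then 5.38 TPM in DMSO, and Cyp17a1, a steroid hydroxylase, at 1.71 then 99.6 TPM in CPF, 0.263 then 0.537 TPM in DMSO. Star, which carries cholesterol into mitochondria, was at 7.33 then 49.9 TPM in CPF, 9.23 then 8.41 TPM in DMSO. Akr1c18, another steroid-metabolising reductase, rose from 1.13 TPM in CPF, and from a listed 0 to 7.70 TPM in DMSO (differences 3.20 and 3.12, mean 3.16, adjusted p = 0.0429). The part of adrenal cortex in the Akr1b7 and Akr1c18 differences was not tested.

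On the sympathoadrenal list 0 of 16 tested genes passed, yet 7 were more than 1 log2 unit higher in both agents and in 10 both E14.5 values exceeded both E12.5 values (17.3% of all tested genes did), with a median of 1.27. Chgb, a granule protein of chromaffin cells, was at 2.99 then 57.9 TPM in CPF, 0.973 then 52.9 TPM in DMSO (4.33, adjusted p = 0.293), and was at 21.5 TPM in CPF and 0.271 TPM in DMSO by E16.5. Th, the first enzyme of catecholamine synthesis, was at 1.62 then 34.4 TPM in CPF, 1.80 then 19.2 TPM in DMSO (3.30, adjusted p = 0.65). Resp18, a protein of neuroendocrine granules, did rise, from 1.00 to 17.1 TPM in CPF and from a listed 0 to 8.80 TPM in DMSO (3.23 ± 0.54 SE, adjusted p = 0.0429). Fabp7, a fatty acid-binding protein of glia and neural crest, rose from 12.1 to 83.7 TPM in CPF and from 4.03 to 18.6 TPM in DMSO (2.33, adjusted p = 0.0479), while the glial factor Sox10 stayed between 1.53 and 2.95 TPM in all 4 libraries. Of 7 tested genes on the Schwann and glia list, only Fabp7 was higher in both agents, Ngfr and Erbb3 were lower in both, and the median was 0.04. The gonad and germ cell list had medians of 2.48 in CPF and -0.11 in DMSO. Its germ cell gene Dppa3 was at 0.248 and 115.3 TPM in CPF and listed at 0 in both DMSO libraries.

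**Figure D3:**
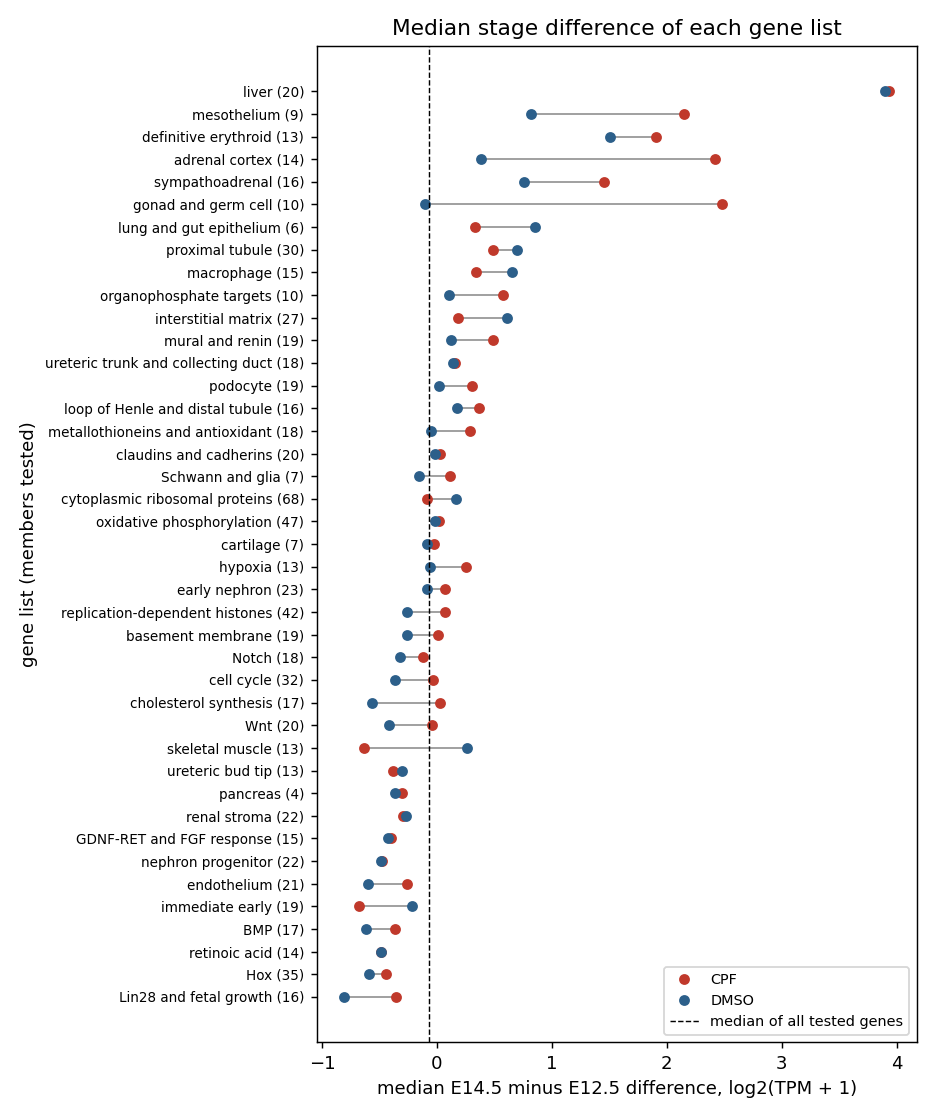
Median stage difference, E14.5 minus E12.5 in log2(TPM + 1), of each gene list with at least 4 tested members, in CPF (red) and DMSO (blue), with the number of tested members in brackets; the dashed line is the median of all tested genes, -0.07. The liver list stands at the top with medians of 3.94 and 3.90, the gonad and adrenal lists have CPF medians of 2.48 and 2.42 far from their DMSO medians, and the Hox and fetal growth lists lie near the bottom.

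Red cell genes split by lineage. Primitive red cells carry embryonic globins and circulate first, and definitive cells, whose production moves to the fetal liver, follow. All 3 embryonic globins were lower at E14.5 in both agents, and none passed. Hbb-y was at 33810 then 15630 TPM in CPF, 6940 then 3738 TPM in DMSO (adjusted p = 0.932), and Hbb-bh1 at 434.6 then 204.0 TPM in CPF, 250.5 then 57.2 TPM in DMSO (-1.60, adjusted p = 0.583). Hba-x was at 2400 then 1179 TPM in CPF, 842.7 then 171.9 TPM in DMSO (-1.66, adjusted p = 0.928). The CPF level of Hbb-y at E14.5 exceeded the DMSO level at E12.5, so the stages overlap. The 13 tested genes of definitive red cells were all higher at E14.5 in both agents, 10 of them by more than 1 log2 unit, with a median of 1.73, and 0 passed. Gata1, the master erythroid transcription factor, was at 3.46 then 18.48 TPM in CPF, 0.297 then 3.79 TPM in DMSO. The definitive list summed to 510.9 and 1713 TPM in CPF and to 106.3 and 260.6 TPM in DMSO, and in 2 of the 13 genes both E14.5 values exceeded both E12.5 values, a share near the 17.3% of all tested genes. The adult globins Hba-a1 and Hbb-bt, which have near-identical copies, were listed at 0 in all 4 libraries and are not interpreted.

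Car2, the carbonic anhydrase of red cells and of acid-base-handling tubule cells, rose from 89.7 to 435.2 TPM in CPF and from 19.4 to 57.6 TPM in DMSO (1.90 ± 0.33 SE, adjusted p = 0.0429), and is the gene whose stages overlapped. S100a8, a calcium-binding protein of neutrophils, rose from 8.03 to 31.4 TPM in CPF and from 0.207 to 9.10 TPM in DMSO (2.45, adjusted p = 0.0479). On the macrophage list 12 of 15 tested genes were higher in both agents (26.7% of all tested genes were), 1 was lower and 0 passed, with a median of 0.46. In 6 of the 15 both E14.5 values exceeded both E12.5 values (17.3% of all tested genes did). Lyz2 (lysozyme) was at 18.9 then 39.9 TPM in CPF, 4.74 then 20.5 TPM in DMSO (1.47, adjusted p = 0.216), and Mrc1, the mannose receptor of resident macrophages, at 18.95 and 28.5 TPM and at 7.18 and 18.9 TPM (0.93, adjusted p = 0.645).

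Of the renal stroma list 1 of 22 tested genes rose and 0 fell, 5 were higher and 13 lower in both agents, and the median was -0.35. The interstitial matrix list had 14 of 27 tested genes higher and 7 lower, with a median of 0.39. Of all tested genes 26.7% were higher and 36.8% lower in both agents. Lum (lumican), which spaces collagen fibrils, rose from 97.8 to 281.1 TPM in CPF and from 17.4 to 139.9 TPM in DMSO (2.22 ± 0.38 SE, adjusted p = 0.0433), and was 1 of 27 tested genes of the interstitial matrix list to pass. Its relatives Ogn (77.0 then 237.0 TPM in CPF, 16.6 then 105.1 TPM in DMSO, adjusted p = 0.349) and Dcn (4.72 and 13.5 TPM, 1.29 and 10.2 TPM, adjusted p = 0.144) were past 1 log2 unit in both agents without passing. The major fibrillar collagens differed less: Col3a1 was at 701.2 then 894.1 TPM in CPF, 515.1 then 711.2 TPM in DMSO (0.41, adjusted p = 0.914). Agtr2, the angiotensin receptor of fetal renal mesenchyme, rose from 125.0 to 343.3 TPM in CPF and from 36.6 to 213.9 TPM in DMSO (1.98 ± 0.35 SE, adjusted p = 0.0445). Tgm2, a transglutaminase that cross-links matrix proteins, rose by nearly the same amount in both agents, 1.78 and 1.83 log2 units, from 22.2 to 78.5 TPM in CPF and from 9.40 to 36.0 TPM in DMSO (adjusted p = 0.0429). Penk, an enkephalin precursor of medullary stroma, was at 20.7 then 44.9 TPM in CPF, 7.70 then 47.7 TPM in DMSO (1.78, adjusted p = 0.349). Rgs4, a pericyte regulator of G-protein signalling, was at 3.30 then 28.4 TPM in CPF, 1.37 then 22.9 TPM in DMSO (3.05, adjusted p = 0.0542), just outside the threshold.

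Of the collecting duct list, 1 of 18 tested genes rose. Krt19, a keratin of ductal epithelium and mesothelium, went from 8.03 to 39.0 TPM in CPF and from 4.71 to 21.1 TPM in DMSO (2.05 ± 0.34 SE, adjusted p = 0.0426). The keratins Krt8 (58.9 and 65.4 TPM, 59.1 and 68.4 TPM) and Krt18 (119.6 and 127.9 TPM, 109.4 and 135.6 TPM) of the same list differed by 0.18 and 0.20 log2 units. Krt19 is also on the mesothelium list, of which 1 of 9 tested genes passed. Another member, Upk3b, a uroplakin of mesothelium, was at 2.04 then 34.6 TPM in CPF, 2.06 then 5.52 TPM in DMSO (2.32, adjusted p = 0.306), and Upk1b was at 1.09 and 14.2 TPM and at 0.183 and 2.85 TPM (2.28, adjusted p = 0.0972). The part of mesothelium or capsule in the Krt19 difference was not tested. Aqp2, the vasopressin-regulated water channel, was at 0.143 TPM or less in all 4 libraries, and Clec2d, a C-type lectin and ligand of a natural killer cell receptor, rose from 10.5 to 33.5 TPM in CPF and from 6.59 to 55.3 TPM in DMSO (2.24, adjusted p = 0.0479).

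No coding gene passed in the direction of lower expression, and the genes below are described by their values. The Lin28 and fetal growth list holds RNA-binding proteins and a chromatin protein that sustain fetal proliferation, and other growth genes such as Peg3, Igf1r and Mycn. On it 11 of 16 tested genes were lower at E14.5 in both agents (36.8% of all tested genes were), with a median of -0.58 (-0.35 in CPF, -0.81 in DMSO). Hmga2, the architectural chromatin factor, was at 318.0 then 167.3 TPM in CPF, 590.5 then 197.5 TPM in DMSO (-1.25 ± 0.29 SE, adjusted p = 0.144). Its stages did not overlap, and it continued to 26.2 and 34.7 TPM at E18.5. Igf2bp1, which binds and stabilises fetal messages, was at 72.3 then 43.8 TPM in CPF, 154.6 then 51.1 TPM in DMSO (-1.14, adjusted p = 0.679). Lin28b, the blocker of let-7 processing, was at 11.8 then 10.6 TPM in CPF, 19.2 then 7.58 TPM in DMSO, so nearly all of its difference came from DMSO (-0.14 and -1.24). Of the list, 11 of 16 genes had both E14.5 values below both E12.5 values, against 24.3% of all tested genes.

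Next come stromal and ureteric genes. Foxd1, the forkhead factor of cortical stromal progenitors (chr13:98354245-98356705), was at 58.2 then 24.4 TPM in CPF, 128.1 then 52.1 TPM in DMSO, with nearly equal differences of -1.22 and -1.28 (adjusted p = 0.225). Tbx18, the T-box factor of ureteral mesenchyme, was at 31.6 then 9.15 TPM in CPF, 39.6 then 13.3 TPM in DMSO (-1.59, adjusted p = 0.302). Adamts18, a metalloprotease expressed at ureteric tips (chr8:113697123-113849343), had the largest lower value among the coding genes named: 22.5 then 5.76 TPM in CPF, 50.8 then 8.51 TPM in DMSO (-2.12 ± 0.46 SE, adjusted p = 0.111). Its tip neighbours differed less, and Etv4, a target of GDNF-RET signalling, was at 83.1 then 56.7 TPM in CPF, 124.9 then 92.6 TPM in DMSO (-0.49, adjusted p = 0.912). On the GDNF-RET and FGF response list 12 of 15 tested genes were lower in both agents (36.8% of all tested genes were), 1 was higher and 0 passed, with a median of -0.36. Ngfr, the low-affinity neurotrophin receptor and a member of the Schwann and glia list, was at 36.2 then 15.7 TPM in CPF, 79.7 then 27.2 TPM in DMSO (-1.34, adjusted p = 0.308). Clstn2, Aff2, Actn3, Col23a1, Ahcy and Cacng7, the other genes named by the size of their smaller difference, lay between -1.59 and -1.12, with adjusted p from 0.235 to 0.563.

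**Figure D4:**
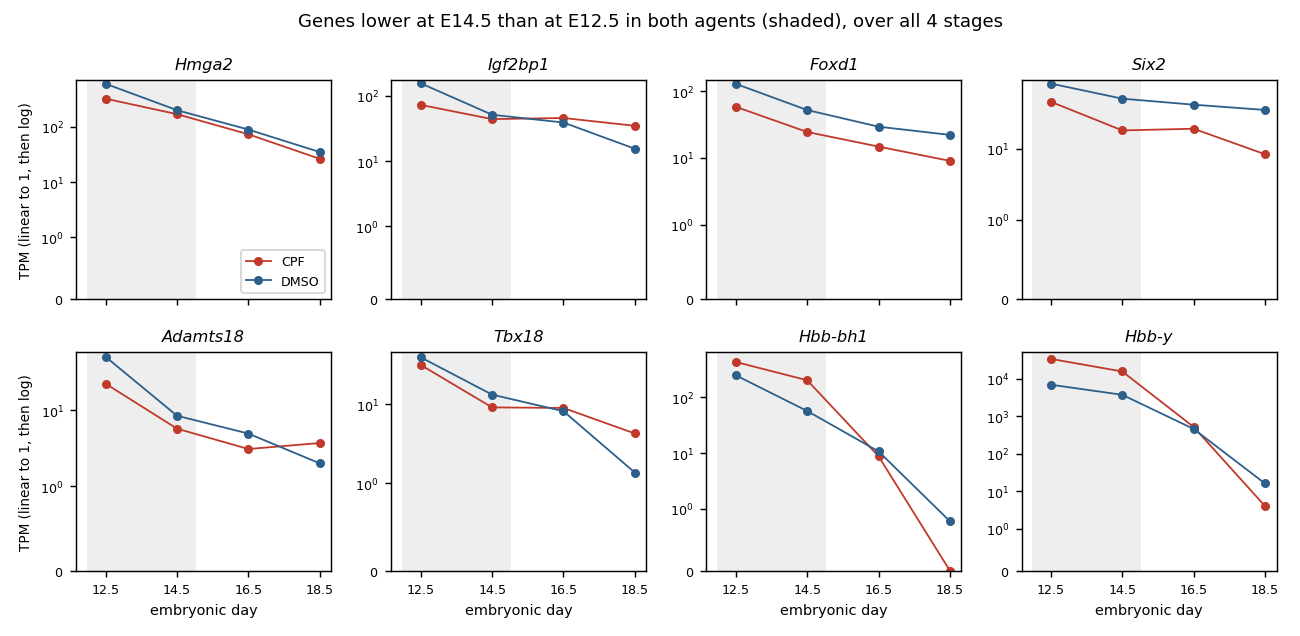
TPM of 8 genes that were lower at E14.5 than at E12.5 in both agents, over the 4 stages (axis linear to 1 TPM, then logarithmic; red CPF, blue DMSO, 1 library per point; the compared stages are shaded). None passed the test; Hmga2 and Foxd1 keep declining to E18.5 in both agents, and the embryonic globins Hbb-bh1 and Hbb-y drop most after E14.5.

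Six2, the transcription factor that holds nephron progenitors in renewal, was at 45.6 then 18.1 TPM in CPF, 82.3 then 50.5 TPM in DMSO (-0.99, adjusted p = 0.569). The DMSO E14.5 value exceeded the CPF E12.5 value, so the stages overlapped. Across the nephron progenitor list 16 of 22 tested genes were lower in both agents (36.8% of all tested genes were), 2 were higher and 0 passed, with a median of -0.39. In 5 of the 22 both E14.5 values lay below both E12.5 values, a share near the 24.3% of all tested genes. Uncx, a homeobox gene of the progenitors, was at 45.4 then 21.3 TPM in CPF, 88.3 then 48.6 TPM in DMSO (-0.95, adjusted p = 0.501), while Gdnf, the ligand that draws out the ureteric bud, was at 28.7 then 19.6 TPM in CPF, 45.96 then 44.7 TPM in DMSO. Itga8, the integrin through which the cap answers nephronectin, was at 98.8 then 118.5 TPM in CPF, 105.3 then 105.1 TPM in DMSO.

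Hox genes, which set axial position, leaned in 1 direction by small amounts. Of 35 tested Hox genes 28 were lower at E14.5 in both agents (36.8% of all tested genes were), 0 were higher in both and 0 passed. Their median was -0.54 (-0.45 in CPF, -0.59 in DMSO). With quantile normalization 26 were lower and 3 higher in both agents, and with scaling to coding transcripts 27 and 2. Hoxc11 was at 4.75 then 1.54 TPM in CPF, 16.1 then 5.17 TPM in DMSO (-1.32, adjusted p = 0.469), and Hoxd12 at 12.1 and 6.05 TPM and at 41.4 and 13.8 TPM (-1.21, adjusted p = 0.456). Hoxd10, the most abundant of the family here, was at 71.2 then 43.2 TPM in CPF, 121.6 then 70.5 TPM in DMSO (-0.74, adjusted p = 0.881). Hoxa11 and Hoxd11, which with their paralogue in the third cluster are needed for metanephric growth, had differences of -0.67 and -1.04. The anterior gene Hoxb1 was at 1.31 then 0.045 TPM in CPF, 3.92 then 0.190 TPM in DMSO (-1.60, adjusted p = 0.256). In 11 of the 35 both E14.5 values lay below both E12.5 values, a share not far above the 24.3% of all tested genes.

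Retinoic acid, made in the stroma from vitamin A, sustains Ret in the ureteric bud. Of 14 tested genes of its pathway 11 were lower in both agents (36.8% of all tested genes were), 0 were higher in both and 0 passed, with a median of -0.44. Crabp2, the carrier that delivers retinoic acid to its receptors, was at 416.2 then 174.7 TPM in CPF, 368.2 then 235.6 TPM in DMSO (-0.94, adjusted p = 0.682). Rdh10, which makes retinaldehyde, was at 121.3 then 71.6 TPM in CPF, 183.7 then 88.2 TPM in DMSO (-0.90, adjusted p = 0.457), and Aldh1a2, the main synthesis enzyme, at 366.1 and 273.3 TPM and at 494.1 and 359.1 TPM (-0.44, adjusted p = 0.912). Aldh1a1 was at 20.9 then 101.5 TPM in CPF, 20.0 then 18.8 TPM in DMSO, a CPF difference of 2.23 beside -0.09 in DMSO. It is also expressed in adrenal cortex, whose list was higher in the same CPF library. The part of adrenal cortex in the Aldh1a1 difference was not tested.

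Lists of the nephron's segments had no calls outside the proximal tubule. Nphs1 (nephrin), a slit diaphragm protein of podocytes, was at 0.143 then 0.884 TPM in CPF, a listed 0 then 1.19 TPM in DMSO. On the podocyte list 9 of 19 tested genes were higher in both agents (26.7% of all tested genes were), 4 were lower and 0 passed. Podxl (podocalyxin), the sialomucin of the podocyte surface, was at 20.4 then 68.3 TPM in CPF, 27.7 then 22.6 TPM in DMSO (0.70, adjusted p = 0.926). Wnt4, the inducer of nephron epithelium, was at 15.8 then 11.8 TPM in CPF, 31.7 then 12.4 TPM in DMSO (-0.84, adjusted p = 0.912), and Lhx1, needed for the first vesicles, at 14.3 and 10.8 TPM and at 18.6 and 15.8 TPM. Endothelial genes were lower in both agents in 12 of 21 cases (36.8% of all tested genes were) and higher in 1, with 0 passing and a median of -0.42. Immediate early genes, which respond within minutes to handling and to signals, were lower in both agents in 11 of 19 and higher in 1. None of them passed, the median was -0.43, and the share of all tested genes lower in both agents was 36.8%. Both E14.5 values lay below both E12.5 values in 4 of the 21 endothelial and 2 of the 19 immediate early genes, beside 24.3% of all tested genes. Among the immediate early genes, Ier2 was at 59.5 then 22.6 TPM in CPF, 51.3 then 19.3 TPM in DMSO (-1.36, adjusted p = 0.161), and Fos at 121.2 then 81.5 TPM in CPF, 5.54 then 4.24 TPM in DMSO. The lists of ribosomal proteins (median 0.03), oxidative phosphorylation (0.03), replication-dependent histones (-0.05) and cell cycle (-0.24) lay near the median of all genes with 0 calls. Of 32 tested cell cycle genes 16 were lower in both agents and 6 higher (36.8% and 26.7% of all tested genes were). Mki67, the proliferation marker, was at 419.8 then 572.7 TPM in CPF, 357.0 then 375.3 TPM in DMSO.

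The later stages show how long the difference lasted. Of the 33 genes other than microRNA precursors that rose, 15 were higher again at E18.5 than at E14.5 in both agents, 14 were lower in both and 4 went opposite ways. At E18.5 Spp2 reached 618.0 TPM in CPF and 136.1 TPM in DMSO, Hao2 347.0 and 96.5 TPM, and Hnf4a 182.0 and 28.0 TPM. Spink1 and Sult1d1 behaved likewise, at 371.3 and 176.6 TPM and at 342.7 and 208.1 TPM. Afp, in contrast, was at 270.1 TPM in CPF and 26.1 TPM in DMSO at E18.5, Ambp at 16.7 and 1.19 TPM, and Gc at 20.0 and 1.42 TPM. In DMSO these 3 were already lower at E16.5 (46.8, 4.02 and 3.89 TPM), whereas in CPF they were at 1956, 135.3 and 88.4 TPM then. The secreted proteins Serpinf2, Cpb2, Serpina10 and Habp2 were instead higher at E18.5 than at E14.5 in both agents. At E18.5 Serpinf2 was at 131.1 TPM in CPF and 32.4 TPM in DMSO, and Cpb2 at 75.8 and 29.3 TPM. Lum and Agtr2, like Afp, were lower at E18.5 than at E14.5 in both agents, at 55.1 and 33.6 TPM and at 92.3 and 68.0 TPM. The later libraries entered the fit, so these courses are a description and not a separate test.

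**Figure D5:**
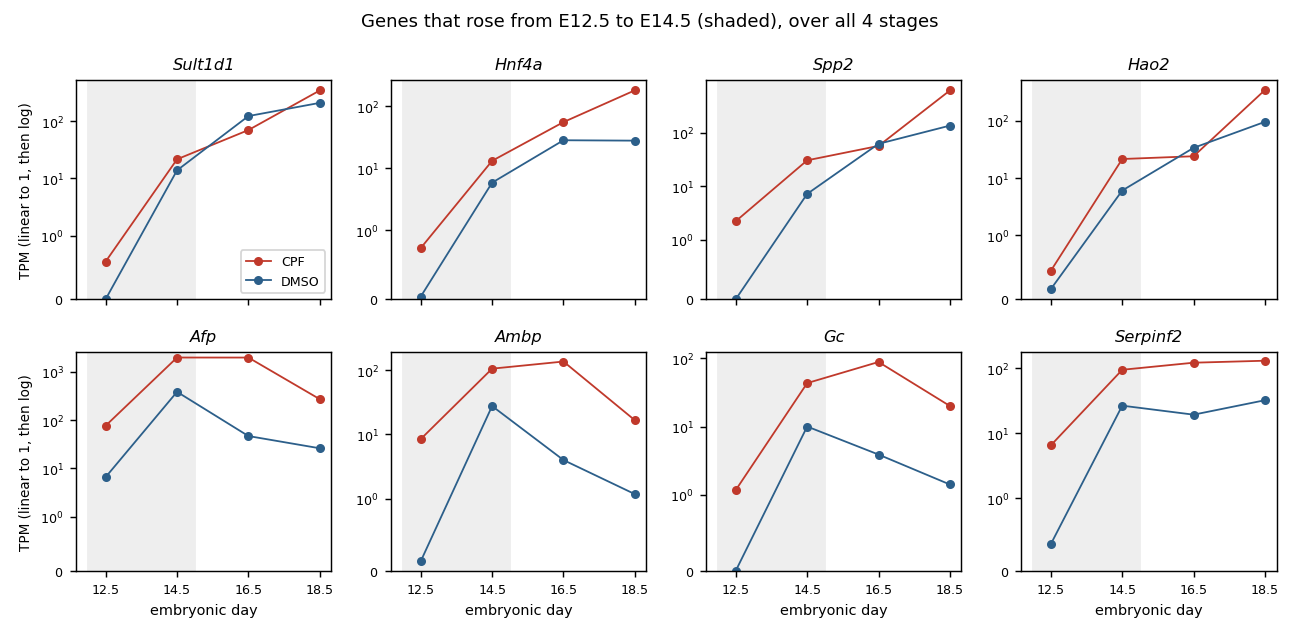
TPM of 8 genes that rose from E12.5 to E14.5, over the 4 stages (axis linear to 1 TPM, then logarithmic; red CPF, blue DMSO, 1 library per point; the compared stages are shaded). Sult1d1, Hnf4a, Spp2, Hao2 and Serpinf2 were higher at E18.5 than at E14.5 in both agents, and Afp, Ambp and Gc were lower.

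Levels also differed between the agents. Of the 38 genes that rose, 33 were higher in CPF than in DMSO at E12.5 and 34 at E14.5, beside 40.4% and 52.6% of all tested genes. With 1 library each, the difference between agents within a stage has no test. Past 1 log2 unit, 918 genes were higher and 357 lower at E14.5 in CPF, 806 and 419 in DMSO, and 75 genes were past 1 in opposite directions.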

How the data were processed

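Total RNA (2 μg per sample, per the labels' protocols) was sequenced in 8 libraries. Trimmomatic, STAR and mm10 are named in the submitters' processing notes, without versions; read assignment to transcripts is not given there. The authors' deposited TPM cover 32862 RefSeq transcripts and sum to 1000000 in each library. TPM was summed per symbol, after 25 symbols listed as dates or numbers had been restored from RefSeq, and log2(TPM + 1) was fitted with limma 3.58.1 in R 4.3.3 (mean-variance trend, robust, stage and agent as terms, 8 libraries), for genes with at least 1 TPM in at least 2 libraries, with Benjamini-Hochberg adjustment over 13677 genes. Genes with several RefSeq transcripts (4777) reached a mean of 1 TPM in 22.7% of cases, against 60.8% of the 19374 with 1. TPM keeps no depth; from the steps between low values, 1 read in 1 kb was worth 0.0807 to 0.101 TPM in the 4 libraries, with 66.4% to 69.2% of low transcripts and 89.1% to 96.4% of hairpins coming out whole within 0.05 reads, so read numbers are approximate. Nothing says that libraries came from separate animals, so p-values measure only the spread between libraries. The test was planned for counts or TPM and used in its TPM form. The fit was tested on simulated data. Named genes were called genes whose mean reached 10 TPM and that have 1 RefSeq transcript, up to 12 each way by size, filled by the smaller within-agent difference, plus kidney genes and list members set down by rule; further called genes and list members were chosen after their values were seen. Members and lists were chosen with earlier results of these data known. Some genes are not reported here. Alternatives were pseudocounts, filters, scalings, other fits and left-out libraries.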

Additional observations from a re-analysis of the deposited data

Results flagged for a closer look

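The 9 genes here went opposite ways in the 2 agents; they were taken by the smaller of their 2 differences where the mean level reached 10 TPM. With 1 library per agent and stage, the difference between the agents was not tested. Values are the CPF difference minus the DMSO difference, E14.5 minus E12.5 in log2(TPM + 1). Capza1, an actin-capping subunit, was higher at E14.5 in CPF and lower in DMSO (1.07 and -1.04), a gap of 2.10. Myrf, a membrane-bound transcription factor, had a gap of 2.23, Pctp, a phosphatidylcholine transfer protein, 1.69, and Nudt10, a nudix hydrolase, 1.53. The other 5 were lower at E14.5 in CPF and higher in DMSO. Nfe2l3, a cap'n'collar factor, was at 53.5 then 22.9 TPM in CPF, 7.98 then 16.0 TPM in DMSO, a gap of -2.11. Hmgn5, a nucleosome-binding protein, had a gap of -1.67, Pop4, a protein subunit shared by RNase P and RNase MRP, -1.87, Scarna17, a small Cajal body RNA, -2.15, and Ccdc3, a secreted coiled-coil protein, -1.93.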

How the results depend on the processing

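Calls depended strongly on the fit. Every gene called had the same sign in every alternative in which it was tested, but sizes moved, from 1.39 to 4.72 for Hnf4a, 2.08 to 6.04 for Sult1d1, 2.28 to 5.87 for Gc and 1.35 to 4.12 for Serpina10. Higher and lower calls were 38 and 1 as reported. They were 649 and 407 with only the 4 libraries (1 residual degree of freedom), 2 and 0 without the agent term, 0 and 0 with quantile normalization, a pseudocount of 5 or no filter, 23 and 0 with scaling to coding transcripts, 69 and 4 with a pseudocount of 0.1, 58 and 3 with a filter of 5 TPM, 10 and 0 without trend and robust moderation, 25 and 2 without the E18.5 pair and 105 and 11 without the E16.5 pair. Leaving out 1 library of the comparison at a time gave 32 to 178 higher and 0 to 28 lower calls (178 and 18 without DMSO E14.5, 113 and 28 without CPF E14.5, 34 and 0 without CPF E12.5, 32 and 2 without DMSO E12.5), where the lone library of its stage is assumed to vary like the others. Without CPF at both E14.5 and E16.5, an alternative chosen after seeing the data, there were 58 and 12, and 12 of the 38 remained. Mir149 kept its call in 4 of 15 alternatives, Mt2 and Serpinf2 in 13 of 17, and Sult1d1 and Spink1 in 14 of 17. Adjusted p over the alternatives reached 0.951 for Mt2, Serpinf2, Afp and Hnf4a. The number of genes higher past 1 log2 unit in both agents, 327, and of genes lower past 1 log2 unit in both agents, 68, came to 699 and 162 with a pseudocount of 0.1, to 90 and 15 with 5, to 32 lower with scaling to coding transcripts and to 39 lower with the filter of 5 TPM. The cause of these changes was not tested, other than that fewer genes or libraries enter some fits. No paired analysis was possible because each group holds 1 library, so replicate numbers form no block beyond the agent term, which already pairs the stages.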
